A study of Sus scrofa with 16 samples.

Results

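The genes described here encode the proteins of the cytosolic ribosome, 45 genes in the liver of pigs fed 3 different fats. They were taken by symbol (RPL or RPS followed by a digit, RPLP0, RPLP1, RPLP2 and RPSA, without kinases and pseudogenes) and kept when 5 or more of the 16 libraries held 10 or more reads. Of the 25880 genes listed, 51 carried such a symbol and 45 passed, 23 of the large subunit and 22 of the small subunit. RPL10L, RPL29 and RPS27A had 0 reads in all 16 pigs, and RPL3L, RPS2 and RPS21 had at most 26 reads in any pig. The study's list of differentially expressed genes names RPS3, a member here, as lower in coconut oil than in rapeseed oil. It also names RPS21 at another identifier, as higher in coconut oil than in beef tallow. That identifier carries no symbol in the annotation table used here and is not among the 45. Nearest to the limit were RPS9 inside it, with 10 or more reads in 11 libraries, and RPS2 and RPL3L outside it, each with 10 or more in 1. Ribosomal protein genes whose identifiers carried no symbol in the annotation table were not analysed here.

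All pigs were crosses of Polish Landrace x Polish Large White sows with Duroc x Pietrain boars and were housed singly while they grew from about 60 kg to 118 kg. Their feeds matched in energy and protein, and only the added fat differed. Group R received rapeseed oil (n = 5, 3 females and 2 males), group B beef tallow (n = 5, 2 females and 3 males) and group C coconut oil (n = 6, 3 females and 3 males). The study describes the females as gilts and the males as barrows, which are castrated males. Each library came from the liver of 1 pig, read by 3′ mRNA sequencing, and the labels give replicate numbers only as part of a pig's title.

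A ribosome joins a small subunit, which binds the mRNA and decodes it, to a large subunit, which forms the peptide bonds, and each subunit is a scaffold of ribosomal RNA covered by ribosomal proteins. The mRNAs of most of these proteins begin with a 5′ terminal oligopyrimidine tract, through which mTORC1 and LARP1 set how strongly they are translated, so that their output can change without a change in mRNA. In the liver, ribosomes carry the synthesis of plasma proteins such as albumin and apolipoproteins.

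Reads assigned to genes numbered 705669 to 1767671 per pig, and 19602 to 54886 of them fell on the 45 ribosomal protein genes. Levels below are CPM, a pig's count of a gene scaled to a common depth with TMM factors over the 16 pigs. Hepatocyte genes marked the tissue as liver: 14 such genes summed to between 97201 and 236404 CPM per pig, with albumin in front, and none was at 0 in all pigs. Reads that aligned to several places were not counted, and they made up 15.4% to 38.1% of the tallied reads, with medians of 26.5% in R, 22.2% in B and 19.8% in C. Ribosomal protein genes have many processed pseudogenes in mammals, so a low count of one gene cannot be read as few transcripts. Coordinates are those of RefSeq on Sscrofa11.1.

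The genes with the most counted reads were RPS12 of the small subunit, RPLP0 of the large subunit stalk and RPS28 of the small subunit, with means over 16 pigs of 2400.5, 2337 and 1741 CPM. RPLP0 lay at 2469.5 ± 361 CPM in R (SD, n = 5), 2331 ± 103 in B (n = 5) and 2231 ± 308 in C (n = 6). RPS12 lay at 2515 ± 695 CPM in R, 2161 ± 415 in B and 2505 ± 360.1 in C. The ranges of both genes overlapped between all diets. At the other end, RPS9 of the small subunit had a mean of 15.9 CPM, RPL36A of the large subunit 23.4 CPM and RPL26L1, a paralog of RPL26, 37.3 CPM. RPS9 had 0 reads in beef tallow pig 3, which allows up to 1.94 CPM in that library (3 reads, counting error only), against 9.80 to 24.1 CPM in the other 4 pigs of B.

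**Figure D1:**
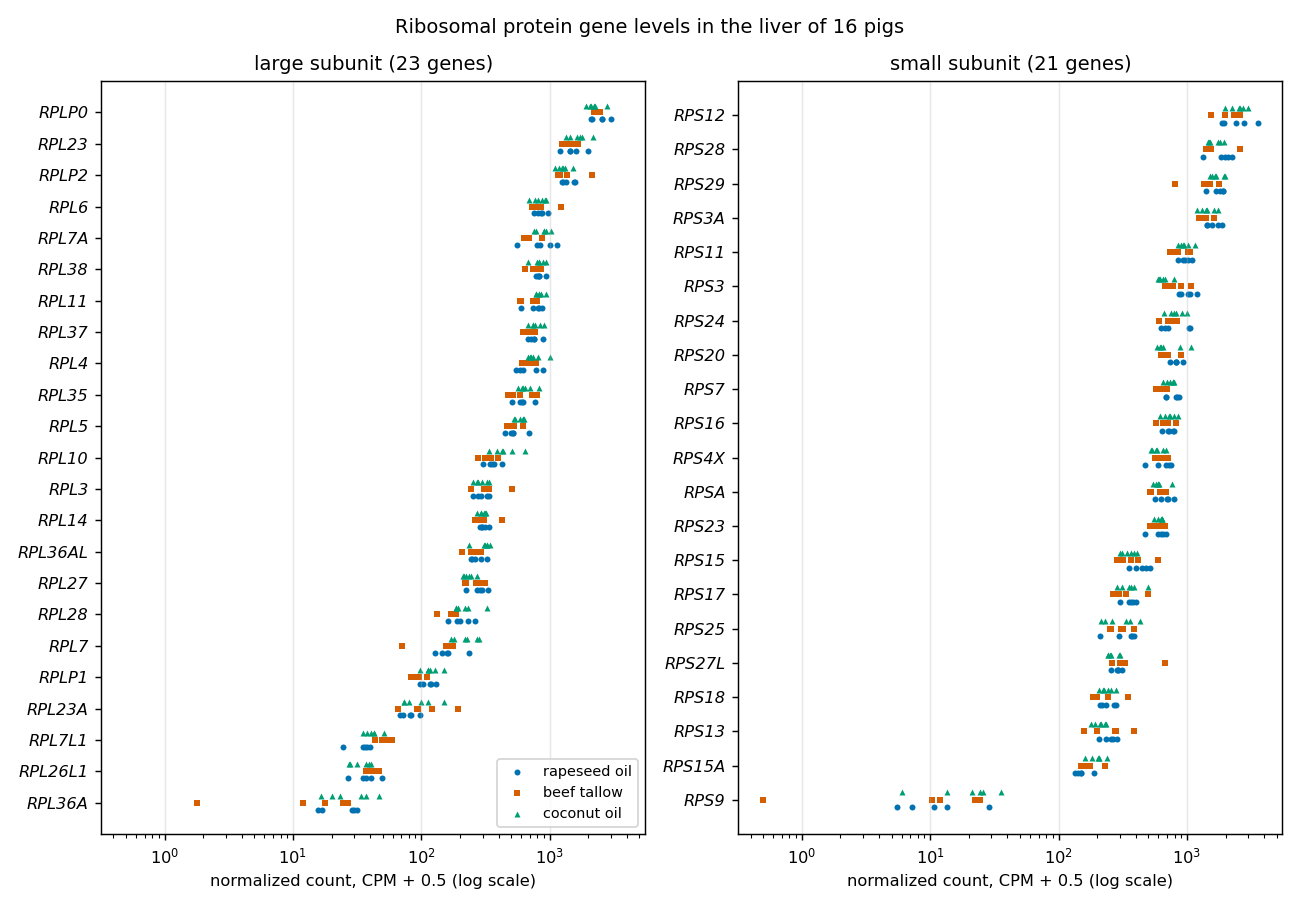
Normalized count (CPM plus 0.5, log axis) of 44 of the 45 ribosomal protein genes in each of 16 pigs, 1 point per pig, coloured by diet. The mean ranged from 15.9 CPM for RPS9 to 2400.5 CPM for RPS12, and for most genes the points of the 3 diets overlapped.

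None of the 45 genes passed an adjusted p of 0.05 in any pair of diets by edgeR's quasi-likelihood test with Benjamini-Hochberg adjustment over all genes. The count was 0 of 45 between R and B, where 1.11% of 6318 genes passed, 0 of 45 between R and C, where 0.138% of 6528 genes passed, and 0 of 45 between B and C, where 0.0587% of 6812 genes passed. DESeq2 gives an adjusted p only for genes that pass its own filter on low counts. It called 0 of 45 members with an adjusted p between R and B (3.24% of 5808 genes), 1 of 43 between R and C (2.61% of 3565 genes), which was RPS3, and 0 of 41 between B and C (2.46% of 2156 genes), so that the share of members called was near or below that of all genes. At an unadjusted edgeR p under 0.05 there was 1 of 45 members between R and B, where 15% of all genes were under it, 4 of 45 between R and C, with 13.0% of all genes, and 6 of 45 between B and C, with 11.5% of all genes. The first 2 of these counts were below the share of all genes and the last stood near it.

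The median standard error of a member's log2 fold change was 0.17 in B against R, 0.15 in C against R and 0.17 in C against B. In B against R the median log2 fold change was -0.09 for the large subunit, with 14 of 23 genes lower, and -0.11 for the small subunit, with 17 of 22 lower, while the median over all genes was 0.01 and 51.5% of them were above 0. In C against R the large subunit had a median of 0.10, with 15 of 23 genes higher, and the small subunit -0.05, with 16 of 22 lower, and 49.9% of all genes were above 0. In C against B the medians were 0.18 for the large subunit, with 14 of 23 genes higher, and 0.08 for the small subunit, with 15 of 22 higher, and 49.6% of all genes were above 0. These comparisons share animals, and the medians carry no test. Many members also moved together from pig to pig, as given below, so the counts of genes are not independent. The 95% interval of the log2 fold change lay within -1 to 1 for 42 of 45 genes between R and B, 44 between R and C and 42 between B and C, compared with 4473 of 6318, 5347 of 6528 and 5060 of 6812 genes in all. It lay within -0.5 to 0.5 for 19, 29 and 19 members, and for the others it reached past 0.5 in at least 1 direction.

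**Figure D2:**
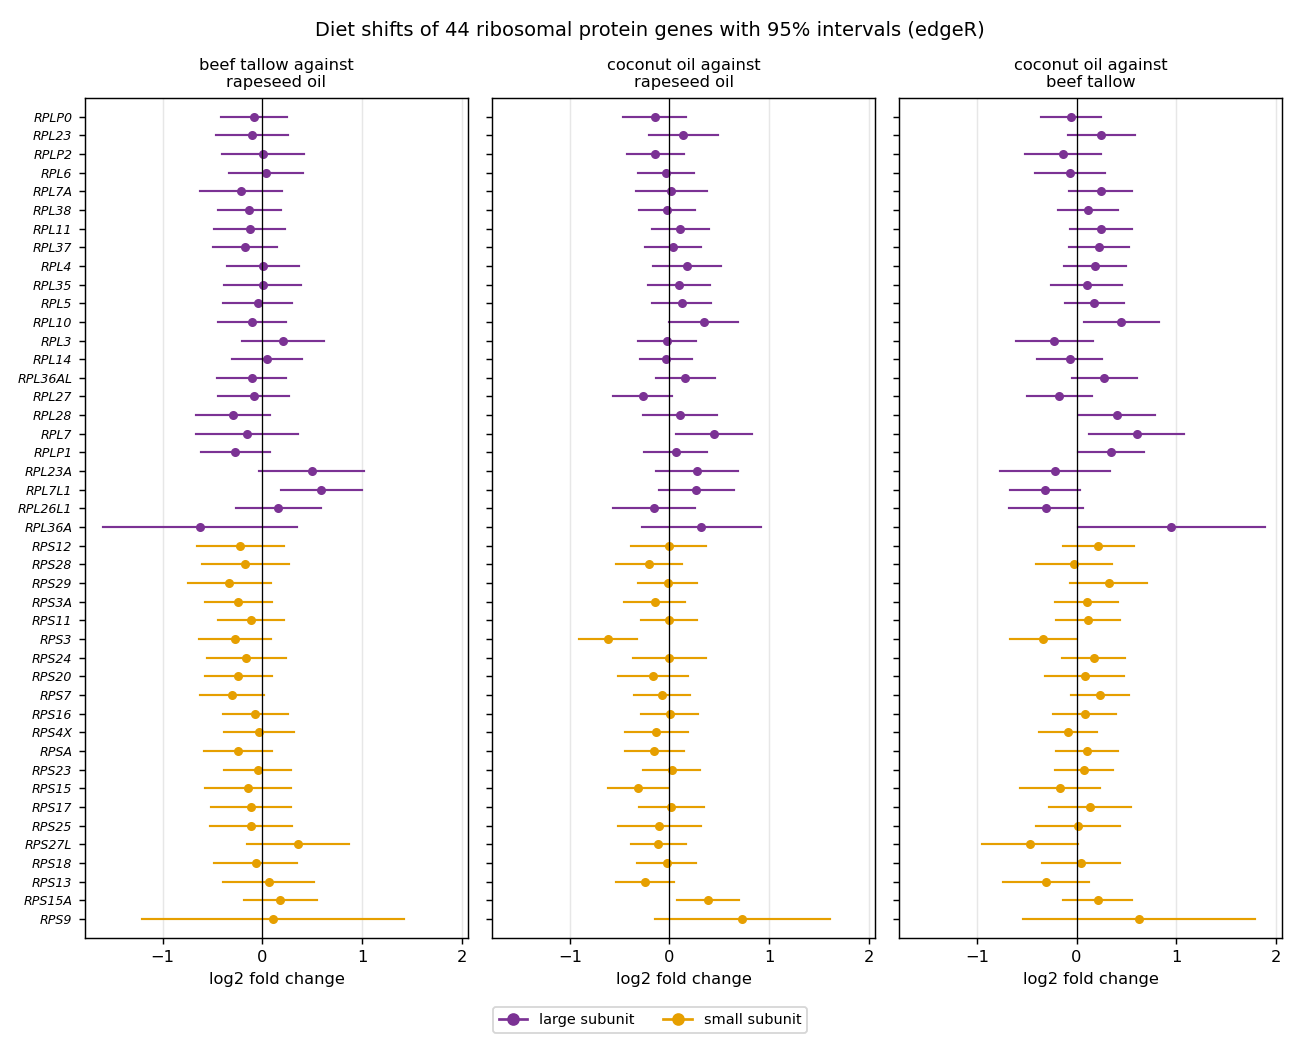
Log2 fold change of 44 of the 45 ribosomal protein genes between diets with its 95% interval from edgeR, large subunit in purple and small subunit in orange, genes ordered by mean count. Most intervals cover 0; RPS3 in coconut oil against rapeseed oil lies at -0.62 with an interval from -0.91 to -0.33.

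Among small subunit genes, RPS3 had the smallest p between diets. It encodes a protein at the mRNA entry channel that also has roles in DNA repair, and it lies on chromosome 9 (9612939 to 9630404). In R its level was 1191, 859, 1019.9, 894 and 1047 CPM in pigs 1 to 5. In B it was 892, 674, 1071, 782 and 724 CPM. In C the lowest pig had 594, the median was 636 and the highest pig had 788 CPM. All 6 pigs of C lay below all 5 pigs of R, and B overlapped both. Groups without overlap were found for 1 of 45 members in this pair and for 1.46% of all genes. In C against R the log2 fold change of RPS3 was -0.62 (SE 0.14, 95% interval -0.91 to -0.33), with an edgeR adjusted p of 0.0849 and a DESeq2 adjusted p of 0.00018. Without coconut oil pig 3, the highest pig of its group, the edgeR adjusted p was 0.0419 and the log2 fold change -0.67, and over all alternatives run in edgeR the adjusted p of RPS3 ranged from 0.0419 to 0.218. RPS3 in C against B was -0.34 (adjusted p = 0.434 by edgeR) and in B against R -0.28 (adjusted p = 0.472 by edgeR).

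The level of RPS3 also went with the share of multi-mapped reads over the 16 pigs, with Spearman's rho of 0.674 (permutation p = 0.00539, adjusted 0.188 over 45 genes) and Pearson's r of 0.487 (permutation p = 0.0564, adjusted 0.231). Without the 2 pigs farthest from the median share, r was 0.541. RPS15 had a similar relation, with rho of 0.644 (permutation p = 0.00871, adjusted 0.188) and r of 0.583 (permutation p = 0.0179, adjusted 0.191), or 0.536 without those 2 pigs. Spearman's coefficient was above 0.5 for 4 members and below -0.5 for 3, together 15.6% of members and 10.6% of all genes, and none of the 45 genes passed adjustment in this relation. The permutations ran over all pigs regardless of diet. Because the multi-mapped share, RPS3 and RPS15 all had lower medians in C than in R, these p do not separate the relation from the diet difference. With the multi-mapped share as a covariate, a choice made after seeing the data, RPS3 in C against R was -0.60 with an edgeR adjusted p of 0.0993. Reads of RPS3 that were not counted are not in the files, and their part in its shift was not tested.

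RPS15A, a small subunit protein gene on chromosome 3 (26776661 to 26783491), stood in the other direction. It had 142, 148, 189 (pig 3), 135 and 149 CPM in R and 161, 203 and 238 CPM as lowest, median and highest in C. The groups overlapped through rapeseed oil pig 3, and 4 of 6 pigs of C lay above every pig of R. The log2 fold change in C against R was 0.38 (SE 0.15, edgeR adjusted p = 0.273). RPS15, whose protein takes part in the export of the small subunit from the nucleus, had 354, 445, 398, 481 and 513 CPM in R and 298, 356 and 405 CPM as lowest, median and highest in C. Its log2 fold change in C against R was -0.32 (SE 0.14, edgeR adjusted p = 0.353).

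RPS7, whose protein can bind the p53 regulator MDM2, had 862, 684, 820.2, 690.4 and 838 CPM in R and 702, 675, 577, 611 and 590.2 CPM in B. Pig 1 of B lay above 2 pigs of R and the other 4 lay below all of R. The log2 fold change in B against R was -0.30 (SE 0.15, edgeR adjusted p = 0.355). RPS29, a zinc-binding small subunit protein, was at 1739 ± 212 CPM in R and 1381 ± 354 in B, with 813 CPM in beef tallow pig 3 as the lowest value of all pigs. Its log2 fold change was -0.33 (edgeR adjusted p = 0.44), and without that pig it was -0.19.

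On the large subunit, RPL7 and RPL10 had higher means in C than in the other diets, without passing adjustment. RPL7, on chromosome 4 (62602430 to 62605892), had 128, 143, 237, 158 and 162 CPM in R and 169, 173, 70.6, 156 and 176 CPM in B. In C its lowest, median and highest values were 169, 223 and 282 CPM. The pigs of C overlapped the top of both other groups. The log2 fold change was 0.44 in C against R (SE 0.18, edgeR adjusted p = 0.307) and 0.60 in C against B (SE 0.23, adjusted p = 0.33), and the second was 0.42 without beef tallow pig 3. RPL10, an X-linked gene whose protein joins the large subunit late and is needed for subunit joining, had 340.3, 368, 426, 301 and 352 CPM in R and 397, 350.04, 331, 312 and 277 CPM in B. In C it reached 336, 426 and 637 CPM as lowest, median and highest. Its log2 fold change was 0.34 in C against R (edgeR adjusted p = 0.394) and 0.45 in C against B (adjusted p = 0.359).

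RPL28 was the 1 member of 45 whose groups did not overlap between B and C, beside 1.47% of all genes. It had 182, 186, 177, 169 and 133 CPM in B, and 187, 206 and 327 CPM as lowest, median and highest in C. All 6 pigs of C lay above all 5 of B, the nearest by less than 1 CPM. The log2 fold change was 0.41 (SE 0.18, edgeR adjusted p = 0.412). RPLP1, a stalk protein that helps recruit elongation factors, was at 113 ± 13.6 CPM in R, 93.6 ± 10.7 in B and 119 ± 18.1 in C. Its log2 fold change was -0.27 in B against R (edgeR adjusted p = 0.451) and 0.34 in C against B (adjusted p = 0.423). RPL27 was at 281 ± 39.4 CPM in R and 234 ± 23.1 in C, and the log2 difference was -0.27 (adjusted p = 0.424 by edgeR). RPL23A, at the exit tunnel where the signal recognition particle docks, had a log2 fold change of 0.50 in B against R (edgeR adjusted p = 0.358), and of 0.21 without beef tallow pig 3, which held 191 CPM against 64.8 to 121 in the other 4.

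**Figure D3:**
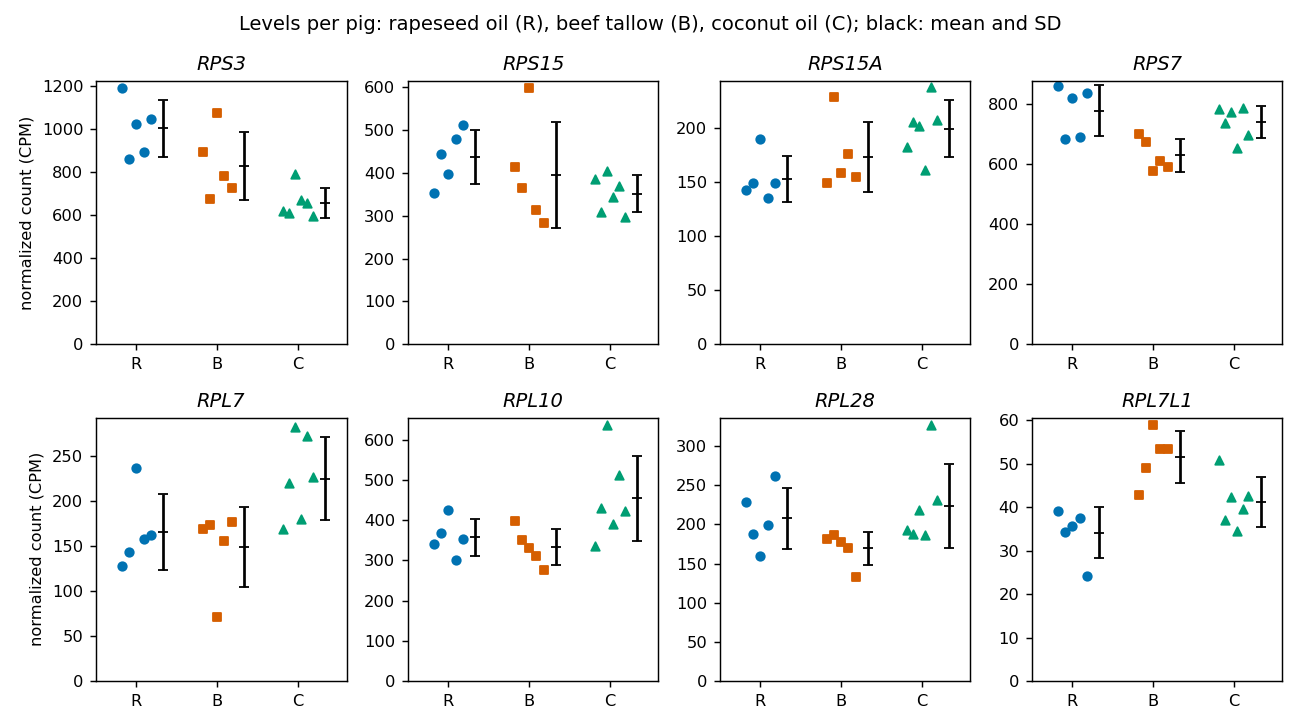
Normalized count (CPM, linear axes from 0) per pig of 8 ribosomal protein genes in rapeseed oil (R), beef tallow (B) and coconut oil (C), with mean and SD in black. RPS3 of all 6 C pigs lies below all R pigs, and RPL7L1 of all 5 B pigs lies above all R pigs.

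Several members are paralogs of another ribosomal protein. RPL7L1, a relative of RPL7 with a nucleolar role in ribosome assembly, lies on chromosome 7 (37940549 to 37948258). It had 39.1, 34.3, 35.6, 37.5 and 24.2 CPM in R and 42.9, 49.1, 58.9, 53.3 and 53.4 CPM in B. All 5 pigs of B lay above all 5 of R, which made 1 of 45 members without overlap in this pair, beside 4.59% of all genes. The log2 fold change was 0.59 (SE 0.19, 95% interval 0.18 to 1.00), with an edgeR adjusted p of 0.146 and a DESeq2 adjusted p of 0.144. In C it had 34.5, 41.1 and 50.9 CPM as lowest, median and highest, between the means of the other diets.

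RPS27L, a paralog of RPS27 that p53 can induce, was at 285 ± 19.3 CPM in R, 365 ± 176 in B and 265 ± 26.7 in C. The spread in B came from pig 3 with 676 CPM, against 259 to 328 in the other 4. RPL36AL, a paralog of RPL36A, was at 273 ± 34.8 CPM in R, 254 ± 32.1 in B and 307 ± 38.5 in C, and its log2 fold change in C against B was 0.28 (edgeR adjusted p = 0.496). RPL36A, X-linked, had a log2 fold change of 0.95 in C against B (edgeR adjusted p = 0.425), and of 0.61 without beef tallow pig 3, where it had 2 reads. RPL26L1 was at 37.3 ± 8.19 CPM in R, 41.9 ± 3.71 in B and 33.5 ± 5.96 in C. RPS4X, the X-linked small subunit gene, was at 646.5 ± 115 CPM in R, 632 ± 57.4 in B and 592 ± 62.9 in C, and none of these ranges stood apart. Reads shared by near-identical copies were not counted, so a paralog's level may be an underestimate.

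A further 23 members, 12 of the large and 11 of the small subunit, had log2 fold changes between -0.25 (RPSA) and 0.20 (RPL3) in B against R, between -0.25 (RPS13) and 0.18 (RPL4) in C against R, and between -0.31 (RPS13) and 0.25 (RPL23) in C against B. RPSA, which also serves as a laminin receptor at the cell surface, and RPS13 belong to the small subunit. RPL4 lines the exit tunnel of the large subunit. The smallest edgeR adjusted p among these 23 genes was 0.493, 0.464 and 0.541 in the 3 pairs.

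The 45 genes together took 3.01% of the reads counted on genes in R (median, range 2.59 to 3.58%), 2.75% in B (2.53 to 3.21%) and 2.91% in C (2.71 to 3.31%). The ranges overlapped. In bulk tissue, fewer cells of a type and less RNA per cell cannot be told apart. The ratio of reads on large to small subunit genes was 0.78, 0.82, 0.78, 0.76 and 0.81 in the pigs of R, 0.80, 0.89, 0.90, 0.84 and 0.82 in B, and 0.839, 0.859 and 0.875 as lowest, median and highest in C. All 6 pigs of C lay above all 5 of R, whose highest ratio was 0.819, and B overlapped both. Without RPS3 the ratio was 0.811 to 0.867 in R and 0.879 to 0.916 in C. Without the 3 members with the most reads it was 0.795 to 0.930 in R and 0.935 to 1.002 in C. The per-pig median log2 level of large minus small subunit genes, centred on 16 pigs, ran from -0.12 to -0.004 in R and from 0.01 to 0.10 in C. The ratio is a score over members and was given no p. Coconut oil pig 3, with the highest share of multi-mapped reads (38.1%), had the lowest ratio of its group, while beef tallow pig 3, with the next highest share (33.2%), had the highest ratio of all 16 pigs (0.903).

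**Figure D4:**
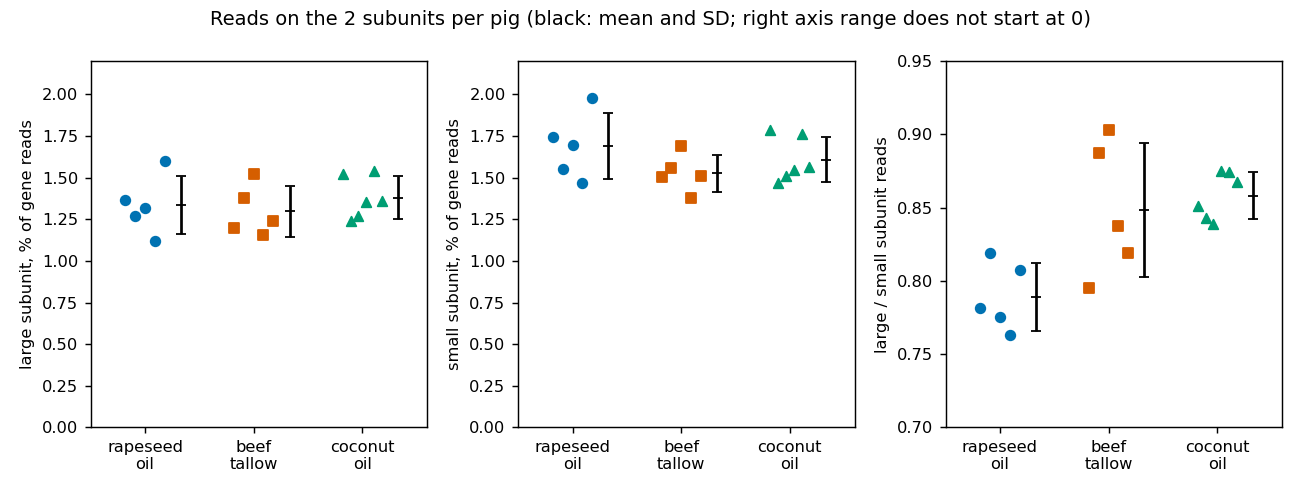
Share of gene reads on large and small subunit genes and the ratio of both per pig, with mean and SD in black; the ratio axis does not start at 0. The ratio was 0.763 to 0.819 in the 5 rapeseed oil pigs and 0.839 to 0.875 in the 6 coconut oil pigs.

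Beef tallow pig 3 stood apart for these genes and for genes as a whole. Its median absolute log2 deviation from the mean of the other pigs of B was 0.33 for members and 0.48 for all genes. It held the highest level of 16 pigs for 13 members and the lowest for 7, 20 of 45 in all, as it did for 32.9% of all genes. RPS28 was at 2580.0 CPM against 1402 to 1526 in the other 4 pigs of B, and RPLP2 of the stalk at 2148 against 1154 to 1354. RPL7, RPS29, RPL36A and RPS9 were far below the other 4. In this pig 33.2% of reads were multi-mapped, the hepatocyte genes summed to 97201 CPM (133994 to 236404 in the other 15 pigs) and the Kupffer and myeloid genes to 2109 CPM (916 to 1562). The endothelial, stellate and bile duct genes (1199 CPM, 654 to 1143 in the others) and the mitochondrial ribosome genes (2337 CPM, 1903 to 2126) also lay above the range of the other pigs. A list of regulators of ribosomal protein genes (711 CPM, 763 to 943) lay below it. That list held mTORC1 axis genes and others, and CNBP led it with 29.5% of its sum over all pigs. The part of these values in the pattern was not tested. Without this pig 0 of 45 members passed adjustment between R and B by edgeR (2.32% of 6436 genes did), with 4 at an unadjusted p under 0.05 (RPL7L1, RPS20, RPS28 and RPS3), beside 17.5% of all genes, and the medians were -0.10 for the large and -0.16 for the small subunit. Between B and C without it 0 of 45 passed (0.0885% of 6783 genes did) and 3 had an unadjusted p under 0.05 (RPL10, RPL28 and RPL7), beside 10.3% of all genes.

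**Figure D5:**
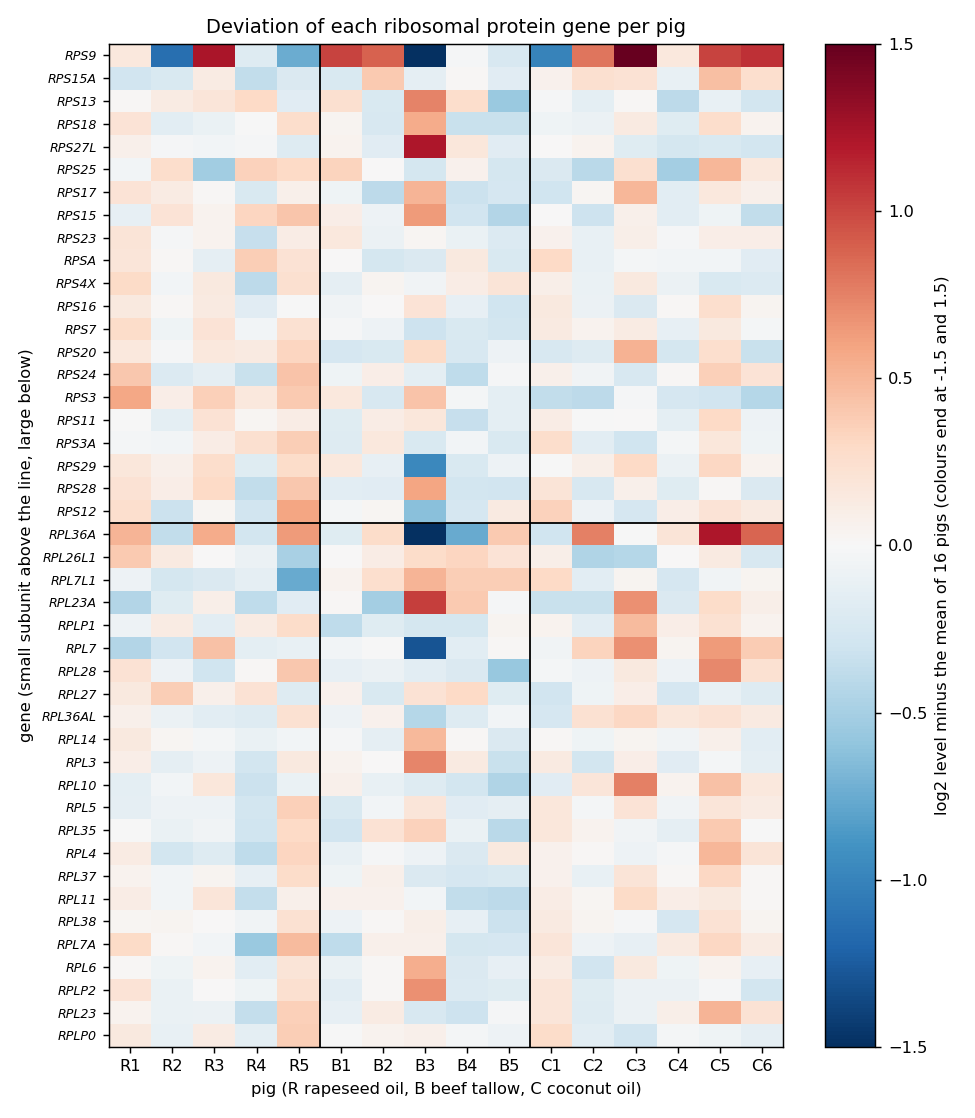
Log2 level of 44 of the 45 ribosomal protein genes, each minus its mean over 16 pigs, small subunit genes above the line and large subunit genes below. Beef tallow pig 3 (B3) lies far below the other pigs of its diet for RPL7 and far above them for RPS27L.

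The within-diet coefficient of variation of the 45 genes had a median of 16.6%, from 9.22% for RPS7 to 61.2% for RPS9. The median was 28.5% over 6891 genes and 25.3% over the 5054 genes in the same range of mean CPM. That range ran from 15.9 to 2400.5 CPM, and genes were not matched in level within it. Counting error is wider at low counts, and the part of read count in this difference was not tested. From pig to pig, Spearman's rho of a member with the median of the other members over 16 pigs, which share depth and library, was 0.544 in the median and above 0.5 for 23 of 45 genes. RPL6 was closest to the others (0.824), followed by RPS28 (0.809) and RPS18 (0.791). RPL7L1 (-0.20), RPS27L (-0.17), RPL27 (-0.15), RPL26L1 (-0.11) and RPS13 (-0.0088) were at or below 0. Diet differences enter these coefficients. With each diet's mean taken out, RPL26L1 stood at 0.07, and RPSA (-0.03), RPL7 (-0.03) and RPS9 (-0.0059) were also below 0. These values are a description with no test.

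Between the sexes (gilts and barrows), fitted over 16 pigs with diet as a term, 0 of 45 members passed an adjusted p of 0.05 by edgeR (0.0786% of 6365 genes did), and DESeq2 called 0 (0.0695% of 15838 genes). At an unadjusted p under 0.05 there were 2 members (4.90% of all genes), RPS13 at 265 ± 55.2 CPM in 8 females and 210.5 ± 41.3 in 8 males, and RPS15 at 432 ± 78.8 and 353 ± 74.6. Both had an edgeR adjusted p of 0.914. In males against females the median log2 fold change was -0.07 for the large subunit, with 16 of 23 genes lower. It was -0.11 for the small subunit, with 15 of 22 lower, while 49.8% of all genes were above 0. In all, 31 of 45 members were lower in males, as many as in B against R. The sex ratio differed between R and B, and these medians carry no test.

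Other genes of the same translation class did not pass either. Of 20 genes tested with oligopyrimidine tract mRNAs or a place in the ribosome, 0 were called by edgeR in each pair of diets. At an unadjusted edgeR p under 0.05 there was 1 of 20 between R and B, beside 15% of all genes. There were 5 of 20 between R and C, above the 13.0% of all genes, and 2 of 20 between B and C, beside 11.5%. In B against R 16 of 20 had a log2 fold change below 0, with a median of -0.09. In C against R 10 were above 0 and 10 below, with a median of -0.01, and in C against B 12 were above and 8 below, with a median of 0.06. RACK1, which sits on the small subunit, was at 659 ± 65.0 CPM in R, 590 ± 62.0 in B and 542 ± 48.1 in C, with a log2 fold change of -0.29 in C against R (edgeR adjusted p = 0.361). FAU, whose product includes the small subunit protein eS30, was at 13.9 ± 2.51 CPM in R, 13.6 ± 9.25 in B and 14.7 ± 8.26 in C. Single markers of the cell types of the liver passed adjustment between diets. Between R and B edgeR called 1.11% of all genes. In B against R edgeR called 1 of 13 hepatocyte genes (TTR, log2 fold change -0.78, adjusted p = 0.0426), 1 of 10 Kupffer and myeloid genes (CD163, 0.79, adjusted p = 0.0414), 1 of 10 endothelial, stellate and bile duct genes (LYVE1, 0.88, adjusted p = 0.0495) and 0 of 4 lymphocyte genes. The lists as a whole stood at a median log2 fold change of 0.04 for hepatocytes (7 of 13 above 0), 0.17 for Kupffer and myeloid genes (8 of 10 above 0), -0.11 for endothelial, stellate and bile duct genes (6 of 10 below 0) and -0.19 for lymphocytes (4 of 4 below 0), and 31 of 45 ribosomal protein genes were below 0 in this pair. By DESeq2, which called 3.24% of all genes in this pair, CPS1 of hepatocytes was also higher and RGS5 of pericytes lower. In C against R and in C against B edgeR called 0 of these markers, beside 0.138% and 0.0587% of all genes. The Kupffer and myeloid genes had 9 of 11 below 0 in C against B, with a median of -0.44, and 7 of 10 below 0 in C against R, with a median of -0.07. At an unadjusted edgeR p under 0.05, 4 of these genes were lower in C against B, beside 11.5% of all genes in either direction. In C against R 1 of these genes was lower, beside 13.0% of all genes. Among them DESeq2 called C1QA lower in C against both other diets (adjusted p = 0.036 against R and 0.0292 against B). DESeq2 also called LYVE1 higher in C than in R, and TTR higher and CPS1 lower in C than in B. Of all genes it called 2.61% between R and C and 2.46% between B and C. The lists' summed levels overlapped between the diets. In R, B and C they were 151047 to 210505, 97201 to 207965 and 133994 to 236404 CPM for hepatocyte genes, and 916 to 1509, 1141 to 2109 and 962 to 1210 CPM for Kupffer and myeloid genes. For endothelial, stellate and bile duct genes they were 654 to 1143, 716 to 1199 and 671 to 1076 CPM, and for lymphocyte genes 129 to 260.5, 126 to 228 and 118 to 194 CPM. Their part in the shifts of the ribosomal protein genes was not tested.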

How the data were processed

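Liver RNA of 16 pigs was made into QuantSeq 3′ libraries, 1 per animal. The authors trimmed reads, aligned them with TopHat to the Sus scrofa 11.1 genome and counted them with HTSeq-count, without multi-mapped reads. The deposited values are raw counts per Ensembl gene; the strand setting is not given in the sources used here. The 5 tallies of uncounted reads stayed out of library sizes. Symbols came from a table of a later Ensembl release, which named 14857 of 25880 identifiers.

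Pairs of diets were compared with edgeR 4.0.16 in R 4.3.3 (TMM, filterByExpr with a minimum count of 10 and total of 15, quasi-likelihood test, Benjamini-Hochberg over all genes tested, threshold 0.05), the first diet as reference. Sex was fitted over all pigs with diet as a term. DESeq2 1.42.0, the tool of the authors, was an alternative. Standard errors were derived from each edgeR log2 fold change and its F statistic, and the 95% intervals used the fit's degrees of freedom. Correlations used 100000 permutations. The procedure was tested on simulated data with genes drawn independently. Its recovery of shifts as small as those of the members is not reported here. Members and lists were chosen with earlier results of these data known. Named genes were all calls, the 6 members with the smallest p per pair, the 3 highest and 3 lowest means, paralogs, and called genes of the other lists with RACK1 and FAU. Of 120 pairs of libraries, 0 were identical. Depth ranged from 705669 to 1767671 reads on genes. Other alternatives were scaling, filters, covariates, thinning and leaving out each pig. The values of 1 member are not reported here by name; it stays in the counts and medians.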

Additional observations from a re-analysis of the deposited data

Results flagged for a closer look

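In 6 of 75 groups tested, 1 pig lay apart from its group by Dixon's criterion, which chance gives in about 1 of 20 groups. In beef tallow pig 3, RPL7 was at 70.6 CPM (nearest pig 155.8), RPS27L at 676.4 CPM (nearest 328.3) and RPS28 at 2580.0 CPM (nearest 1525.8). RPL28 was at 326.6 CPM in coconut oil pig 5, with the next pig at 231.05. RPL36AL was at 232.97 CPM in coconut oil pig 1, with the next pig at 304.7. RPS15A was at 189.5 CPM in rapeseed oil pig 3, with the next pig at 149. The first 3 of these 6 values came from beef tallow pig 3.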

How the results depend on the processing

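The 45 members leave out the RPS21 identifier that the study called between B and C. Among them the count called stayed at 0 between R and B and between B and C in every alternative. Between R and C it was 1 by DESeq2 and 0 to 1 with any single pig left out; the 1 was RPS3 both times (log2 fold change -0.62 by DESeq2 and -0.67 without coconut oil pig 3). Over all alternatives RPS3 stayed between -0.67 and -0.54. The median log2 fold changes kept their sign, with leave-one-out ranges of -0.14 to -0.01 (large) and -0.16 to -0.06 (small) in B against R, 0.03 to 0.14 and -0.09 to -0.01 in C against R, and 0.09 to 0.21 and 0.04 to 0.13 in C against B. Over all tallied reads the share of the 45 genes had medians of 1.49% in R, 1.35% in B and 1.54% in C; without the 20 highest genes of each pig it was 4.29%, 4.03% and 4.15%. The ratio of large to small subunit reads had medians of 0.871, 0.921 and 0.979 without the 3 members with the most reads, and 0.837, 0.886 and 0.893 without RPS3, both chosen after seeing the data. The cause of these moves is the changed denominator or gene set. Counts over all genes moved more: 70 genes passed between R and B by edgeR, 188 by DESeq2, 190 without the filter, 193 with the multi-mapped share as a covariate and 9 to 149 with a pig left out; between R and C 9, 93, 82, 8 and 3 to 27, with 14 when every pig needed 10 reads; between B and C 4, 53, 22, 5 and 4 to 9, with 8 when all 16 pigs were fitted at once. Correlations between the deviations of same-numbered pigs were low (-0.25 to 0.14). Even so, R pigs 1, 2 and 3 each matched best with the same-numbered pig of C. Number 4 did so in the other 2 pairs of diets. These values cannot tell whether the numbers mark a shared block. With the replicate block 35, 8 and 4 genes passed, 0 of them members, and the large subunit medians were -0.09, 0.08 and 0.16. Counting error is widest for RPS9, with 0 to 9 reads in 5 pigs, and RPL36A, with 2 reads in beef tallow pig 3, whose library was the third deepest of the 16.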

Other observations

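The mitochondrial ribosome is built from another set of nuclear genes. Of those with a symbol, 49, 51 and 52 were tested in the 3 pairs of diets and 0 were called by edgeR. MRPL3, a large subunit protein of that ribosome, was at 60.7 ± 19.5 CPM in R, 41.2 ± 14.0 in B and 31.3 ± 6.29 in C, with a log2 fold change of -0.97 in C against R (SE 0.21, edgeR adjusted p = 0.0794, DESeq2 adjusted p = 0.00835). It was the 1 gene of the list that DESeq2 called, in that pair alone. That was 1 of 25 list genes with an adjusted p, beside 2.61% of 3565 genes. The median log2 fold changes of the list were 0.02 in B against R, 0.06 in C against R and 0.03 in C against B. Of 13 tested genes in the list of regulators of ribosomal protein genes (mTORC1 axis genes and others such as CNBP), 0 were called by edgeR in each pair.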
